A study of Mus musculus with 10 samples.

Results

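The miR-148 and miR-152 family of microRNAs was followed across 5 groups of mouse embryonic stem cells. Its 6 members, mmu-miR-148a-3p, mmu-miR-148a-5p, mmu-miR-148b-3p, mmu-miR-148b-5p, mmu-miR-152-3p and mmu-miR-152-5p, are the arms of 3 hairpins and were taken by name out of 1907 mature microRNA entries in the count table. Small RNA had been sequenced in 10 libraries, 2 per group. The groups were Dgcr8 knockout (Dgcr8_KO), Drosha knockout (Drosha_KO), Dicer knockout (Dicer_KO), Ago1 and Ago2 double knockout (Ago12_KO) and wild type (WT). All were E14 cells, a mouse embryonic stem cell line, of 129/Ola background, cultured on gelatine with serum and LIF, a cytokine that keeps such cells undifferentiated. How the mutations were made, how many clones stand behind a group and whether its libraries are separate cultures is not in the labels, which give the codes P25 and P33 to the WT libraries and C1 and H11 to the Dicer_KO libraries without explaining them; every p-value therefore reflects the spread between these libraries alone, and that spread may be technical. Small RNA libraries hold no messenger RNA, so the deleted genes themselves could not be checked in them.

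MicroRNAs are cut from hairpin transcripts in consecutive steps. In the nucleus Drosha, with its RNA-binding partner Dgcr8, frees the hairpin. In the cytoplasm Dicer removes the loop and leaves a duplex of a 5p and a 3p strand. An Argonaute protein such as Ago1 or Ago2 then keeps 1 strand, the guide, and the other is usually degraded. The seed, bases 2 to 8 of the guide, pairs with target messenger RNAs. In the miR-148 and miR-152 family the 3p strands are the usual guides, and the messenger RNA of the maintenance DNA methyltransferase Dnmt1 is among the targets described for them.

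The mature sequences are shown because members with a common seed can pair with the same sites, and because the 3p arms are alike enough for reads to be confused. They are from RefSeq on GRCm38.p6, written 5′ to 3′ with the seed in capitals.
miR-148a-3p: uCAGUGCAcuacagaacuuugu
miR-148b-3p: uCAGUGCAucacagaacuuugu
miR-152-3p: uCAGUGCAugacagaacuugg
miR-148a-5p: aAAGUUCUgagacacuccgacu
miR-148b-5p: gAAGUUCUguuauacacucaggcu
miR-152-5p: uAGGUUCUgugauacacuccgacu

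The seed CAGUGCA was shared by the 3 3p arms and by no other entry, among the 1623 entries with a RefSeq sequence. The 5p arms of mir-148a and mir-148b shared AAGUUCU, and miR-152-5p had AGGUUCU. Counted from 1 at the 5′ end, miR-148a-3p differed from miR-148b-3p at C9U and U10C, so 20 of 22 bases were identical. From miR-152-3p it differed at C9U, U10G and U20G, and miR-148b-3p differed from miR-152-3p at C10G and U20G. How mismatched reads and reads that fit several entries were counted is not given in the sources used here, so the split of reads among the 3p arms is uncertain.

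The hairpins are shown to place both arms on their stems, with the mature arms in capitals and the 5p arm first.
mir-148a: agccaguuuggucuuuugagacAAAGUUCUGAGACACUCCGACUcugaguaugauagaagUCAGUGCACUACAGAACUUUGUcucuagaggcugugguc
mir-148b: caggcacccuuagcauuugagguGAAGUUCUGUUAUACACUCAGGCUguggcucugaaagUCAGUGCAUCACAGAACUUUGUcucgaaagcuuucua
mir-152: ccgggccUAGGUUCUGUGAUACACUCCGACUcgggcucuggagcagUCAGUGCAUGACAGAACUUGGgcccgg

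On GRCm38, mir-148a lies at chr6:51269812-51269910 on the minus strand, where the GENCODE M21 annotation holds no other gene. Mir-148b lies at chr15:103285125-103285221 on the plus strand, within an intron of Copz1, a coatomer subunit gene. Mir-152 lies at chr11:96850393-96850465 on the plus strand, within an intron of Copz2, the paralogue of Copz1. The loop between the arms was 16 bases in mir-148a, 13 in mir-148b and 15 in mir-152.

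The libraries differed greatly in depth, with totals of 289539 and 408654 counts (Dgcr8_KO), 39511 and 40306 (Drosha_KO), 45222 and 37476 (Dicer_KO), 349312 and 229407 (Ago12_KO), and 2357868 and 1943868 (WT). Levels are given in CPM, which sum to 1000000 in each library, a share and not an amount: a smaller share, a gain of other RNAs, fewer cells of a type and less RNA per cell cannot be told apart. A list of 5 entries that resemble fragments of other RNAs took 46.9 to 48.5% of the Dicer_KO counts, against 0.354 to 0.464% in WT. A list of 9 microRNAs typical of embryonic stem cells took 10.3 to 10.5% of the counts of Dgcr8_KO, 11.8 to 12.7% of Drosha_KO, 1.00 to 1.15% of Dicer_KO, 6.45 to 7.27% of Ago12_KO and 13.7 to 14.8% of WT. Of these 9, miR-302a-3p, miR-302b-3p and miR-302d-3p were at 0 in Drosha_KO and Dicer_KO. These are the shallowest groups, where 0 counts allow up to 37.6 and 36.3 CPM, at 3 counts of the summed total. A low level could therefore not be told from absence there.

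Summed over its 6 members, the family took a smaller share of all counts in Dgcr8_KO, Drosha_KO and Dicer_KO than in WT, while the libraries of Ago12_KO and WT overlapped. The share was 0.571% ± 0.0230 in Dgcr8_KO, 0.257% ± 0.00185 in Drosha_KO, 0.0916% ± 0.00497 in Dicer_KO, 1.39% ± 0.336 in Ago12_KO and 1.42% ± 0.113 in WT (SD, n = 2 each). WT thus held 2.50 times the share of Dgcr8_KO, 5.54 times that of Drosha_KO and 15.5 times that of Dicer_KO. Those 3 groups did not overlap WT, while the Ago12_KO libraries, at 1.15 and 1.62%, lay on either side of WT, at 1.503 and 1.34%. An exact two-sided permutation test cannot go below 0.333 with 2 libraries against 2, which was its value for each of those 3 groups, and it was 1 for Ago12_KO. The family rested on 4003 counts in Dgcr8_KO, 205 in Drosha_KO, 76 in Dicer_KO, 7740 in Ago12_KO and 61571 in WT.

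**Figure D1:**
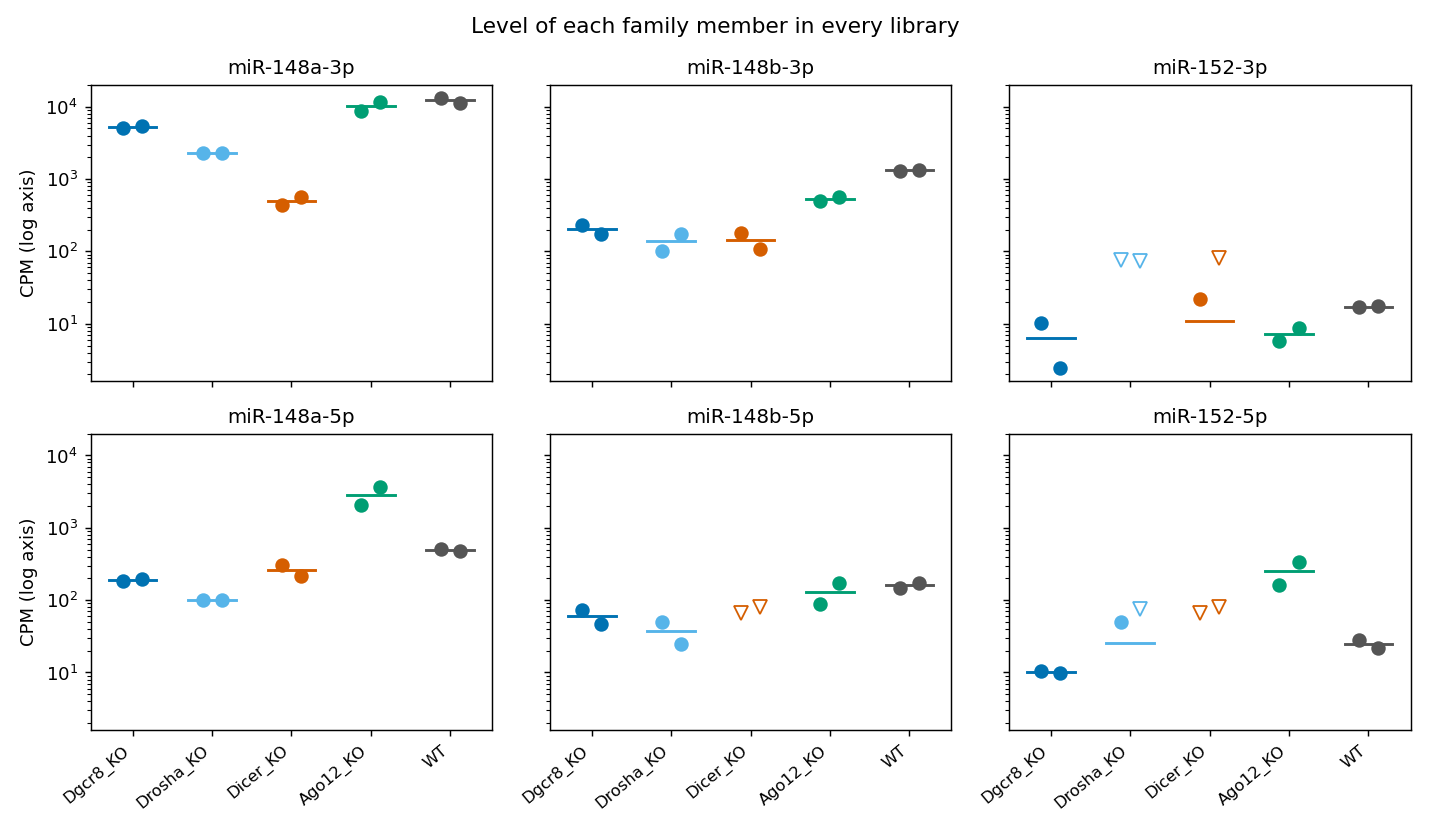
Level of each member in each library, in CPM on a log axis, with groups from left to right Dgcr8_KO, Drosha_KO, Dicer_KO, Ago12_KO and WT. Filled dots are libraries, lines are group means, and open triangles are libraries with 0 counts, drawn at their 3-count floor. MiR-148a-3p is the highest member in all 10 libraries, and the 5p arms of mir-148a and mir-152 are the members with both Ago12_KO libraries above both WT libraries on this scale.

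MiR-148a-3p, the main guide strand of the family, was its most abundant member in every library. It had 5032 and 5442 CPM for Dgcr8_KO, 2278 and 2258 for Drosha_KO, 442 and 560 for Dicer_KO, 8680 and 11477 for Ago12_KO, and 13026 and 11401 for WT. By mean level it ranked 34 in Dgcr8_KO, 49 in Drosha_KO, 67 in Dicer_KO, 19 in Ago12_KO and 17 in WT among all entries. The order of the groups was therefore WT, Ago12_KO, Dgcr8_KO, Drosha_KO and Dicer_KO, and only Ago12_KO and WT overlapped.

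MiR-148b-3p, with the same seed, came next among the 3p arms. Its levels were 235 and 171 CPM for Dgcr8_KO, 101 and 174 for Drosha_KO, 177 and 107 for Dicer_KO, 504 and 567 for Ago12_KO, and 1306 and 1347 for WT. WT stood above Ago12_KO and Ago12_KO above the other mutants, whose libraries overlapped each other.

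MiR-152-3p, the third strand with this seed, was scarcely present. It had 3 and 1 counts for Dgcr8_KO, 0 and 0 for Drosha_KO, 1 and 0 for Dicer_KO, 2 and 2 for Ago12_KO, and 40 and 34 for WT, where it averaged 17.2 CPM. It was under the minimum level for testing, 38.54 CPM, in all 10 libraries. From the summed counts, the ratio of levels was 0.333 for Dgcr8_KO over WT (95% exact interval 0.0884 to 0.889) and 0.402 for Ago12_KO over WT (0.107 to 1.07), intervals that cover counting error only. In Drosha_KO and Dicer_KO the depth did not allow a level like that of WT to be told from absence.

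MiR-148a-5p, the partner strand of miR-148a-3p, showed another order. It had 183 and 196 CPM for Dgcr8_KO, 101 and 99.2 for Drosha_KO (4 and 4 counts), 310 and 213 for Dicer_KO, 2053 and 3679 for Ago12_KO, and 509 and 478 for WT. Both Ago12_KO libraries were above both WT libraries, and every library of the other mutants was below them. It ranked 50 by mean level in Ago12_KO and 120 in WT.

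MiR-148b-5p had 72.5 and 46.5 CPM for Dgcr8_KO, 50.6 and 24.8 for Drosha_KO, none in Dicer_KO, 88.7 and 170.0 for Ago12_KO, and 147 and 174 for WT. The Ago12_KO and WT libraries overlapped. In Dicer_KO the 0 counts allow up to 36.3 CPM over the group, at 3 counts of the summed total.

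MiR-152-5p, the partner strand of miR-152-3p, had 10.4 and 9.79 CPM for Dgcr8_KO, 50.6 and 0 for Drosha_KO, none in Dicer_KO, 160.3 and 340.0 for Ago12_KO, and 28.4 and 21.6 for WT. The Ago12_KO values rested on 56 and 78 counts and stood far above the other libraries, while the Drosha_KO value of 50.6 CPM was 2 counts.

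Differences were tested with edgeR's quasi-likelihood test on all 10 libraries, with Benjamini-Hochberg adjustment over the 481 entries that passed a filter on low counts and a call at an adjusted p under 0.05. Of the 6 members, 5 passed the filter; miR-152-5p reached the minimum in the Ago12_KO libraries and 1 Drosha_KO library only, so its passing depended on the group where it was high. The median log2 fold change of all 481 entries over WT was -0.41 (Dgcr8_KO), -0.87 (Drosha_KO), -2.78 (Dicer_KO) and -0.016 (Ago12_KO), and the members are read against it. All directions below are for libraries scaled by their totals; with TMM factors the same medians were -0.71, -1.47, -3.06 and -0.66, and with no scaling, where the greater depth of WT moves every entry, -3.02, -6.40, -7.52 and -2.88.

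In Dgcr8_KO, which lacks the partner of Drosha, 4 of the 5 tested members fell relative to WT, where 41% of all tested entries fell and 32.4% rose. MiR-148b-3p fell most, with a log2 fold change of -2.71 ± 0.32 (SE, adjusted p = 2.43e-05). MiR-148a-3p changed by -1.22 ± 0.27 (adjusted p = 0.002) and miR-148a-5p by -1.38 ± 0.34 (adjusted p = 0.00349), so both arms of mir-148a fell by similar amounts. MiR-148b-5p changed by -1.45 ± 0.43 (adjusted p = 0.0111), which was no longer called without Dgcr8_KO replicate 2 (0.13) or WT replicate 2 (0.0727); over all alternatives its adjusted p was 1.77e-05 to 0.13. MiR-152-5p did not pass the test at -1.30 ± 0.71 (adjusted p = 0.121).

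In Drosha_KO, which lacks the nuclear nuclease, the same number of members fell, 4 of 5, against 31.6% of all tested entries that fell and 26.2% that rose. MiR-148a-3p changed by -2.43 ± 0.29 (adjusted p = 3.1e-05), miR-148b-3p by -3.27 ± 0.41 (adjusted p = 4.6e-05) and miR-148a-5p by -2.30 ± 0.48 (adjusted p = 0.0017). MiR-148a-5p rested there on 8 counts, with a Drosha_KO to WT ratio of 0.202 (95% exact interval 0.0873 to 0.400). MiR-148b-3p rested on 11 counts. The call of miR-148b-5p rested on 3 counts, with a Drosha_KO to WT ratio of 0.236 (95% exact interval 0.0486 to 0.693) and an adjusted p of 0.0387. It was lost without either Drosha_KO replicate (0.0779 without replicate 1 and 0.178 without replicate 2) and without either WT replicate (0.0616 and 0.0934); over all alternatives its adjusted p was 7.32e-07 to 0.178. MiR-152-5p, at 2 counts, had a ratio of 0.989 (0.118 to 3.66).

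Dgcr8 and Drosha belong to the same complex, and the mutants were set against each other. For miR-148a-3p the log2 fold change of Dgcr8_KO over Drosha_KO was 1.21 ± 0.28 (SE, adjusted p = 0.0128), the only call among the 5 tested members, against 5.61% of all entries called higher and 8.32% lower. That call was lost without Dgcr8_KO replicate 1 (0.0815) or replicate 2 (0.123), with adjusted p from 1.16e-05 to 0.123 over all alternatives. The differences of miR-148a-5p, 0.92 (adjusted p = 0.274), and miR-148b-3p, 0.55 (adjusted p = 0.469), did not pass.

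In Dicer_KO, which lacks the loop-removing nuclease, 3 of the 5 tested members fell relative to WT, against 42.6% of all tested entries that fell and 13.3% that rose. MiR-148a-3p changed by -4.61 ± 0.33 on the log2 scale (SE, adjusted p = 8.25e-07), and miR-148b-3p by -3.20 ± 0.40 (adjusted p = 4.79e-05). MiR-148b-5p, without a count in Dicer_KO, was at least 4.39-fold lower there (adjusted p = 0.00323). MiR-148a-5p did not pass, at -0.90 ± 0.40 (adjusted p = 0.0765), and its sign turned to 0.48 (adjusted p = 0.338) with DESeq2's size factors. It was called lower with TMM factors, at -1.19 (adjusted p = 0.0198), with only the groups compared (0.0425) and without Ago12_KO replicate 1 (0.039) or replicate 2 (0.0387); over all alternatives its adjusted p was 2.43e-07 to 0.373. Relative to the median of all entries, miR-148a-5p stood 1.88 higher, while miR-148a-3p stood at -1.83 and miR-148b-3p at -0.42, close to the typical entry. For miR-152-5p no fold could be given, since its WT level lay under the 3-count floor of Dicer_KO.

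Set against the microprocessor mutants, Dicer_KO held less miR-148a-3p, while the difference of its partner strand did not pass the test with libraries scaled by their totals. For miR-148a-3p the log2 fold change was -3.39 ± 0.31 over Dgcr8_KO (SE, adjusted p = 6.4e-06) and -2.18 ± 0.31 over Drosha_KO (adjusted p = 0.000157). It was 1 of 2 members called lower over Dgcr8_KO, where 31.2% of entries were called lower and 15.8% higher, and the only one over Drosha_KO, where 30.4% were called lower and 13.5% higher. MiR-148a-5p was at 0.48 over Dgcr8_KO (adjusted p = 0.363) and 1.40 ± 0.56 over Drosha_KO (adjusted p = 0.0678). It was called higher over Drosha_KO with TMM factors, at 1.73 (adjusted p = 0.025), and with DESeq2, at 2.65 (adjusted p = 0.000393), and without Ago12_KO replicate 1 (0.0406) or replicate 2 (0.0438). Over Dgcr8_KO it was called higher with DESeq2, at 1.89 (adjusted p = 0.000146). The median of all entries was -1.87 over Dgcr8_KO and -1.03 over Drosha_KO; relative to it miR-148a-3p stood at -1.52 and -1.15 and miR-148a-5p at 2.35 and 2.43. The other call over Dgcr8_KO was miR-148b-5p, at least 1.58-fold lower (adjusted p = 0.0351), lost without Dgcr8_KO replicate 1 (0.0718) or either Dicer_KO replicate (0.147 and 0.116), with adjusted p from 9.66e-05 to 0.216 over all alternatives.

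In Ago12_KO, which lacks both Ago1 and Ago2, miR-148a-5p and miR-152-5p rose and miR-148b-3p fell. Relative to WT, miR-148a-5p rose by 2.54 ± 0.34 on the log2 scale (SE, adjusted p = 0.000122) and miR-152-5p by 3.29 ± 0.50 (adjusted p = 0.000338). Of all tested entries 28.7% rose; miR-152-5p had passed the filter through these libraries, where it was high, so only the other 4 tested members, of which miR-148a-5p was 1, are set beside that share. MiR-148b-3p fell, at -1.31 ± 0.30 (adjusted p = 0.00305), the only member called lower, where 25.8% of all entries were. MiR-148a-3p, at -0.28 ± 0.27 (adjusted p = 0.396), and miR-148b-5p, at -0.34 ± 0.40 (adjusted p = 0.486), did not pass. With TMM factors, where the median of all entries was -0.66, miR-148a-3p was called lower, at -0.93 (adjusted p = 0.017); over all alternatives its adjusted p was 4.71e-05 to 0.825.

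Summed over the family, the 5p arms took 0.325% ± 0.133 of the Ago12_KO counts, against 0.0679% ± 0.000683 in WT (SD, n = 2 each), 4.78 times the WT share. The 3p arms took 1.06% ± 0.202 in Ago12_KO, against 1.36% ± 0.112 in WT. In both sums the groups did not overlap, and the exact two-sided permutation p was 0.333, the smallest possible.

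Against Dicer_KO, every tested member was called higher in Ago12_KO, 5 of 5. MiR-152-5p had passed the filter through the Ago12_KO libraries and 1 Drosha_KO library. Only the other tested members are therefore set beside the 38.5% of all entries that were called higher. Of all entries 8.94% were called lower, and the median log2 fold change was 2.38. The log2 fold change was 4.33 ± 0.32 for miR-148a-3p (SE, adjusted p = 1.71e-06), 3.44 ± 0.40 for miR-148a-5p (adjusted p = 4.69e-05) and 1.89 ± 0.42 for miR-148b-3p (adjusted p = 0.00355), which relative to that median stood at -0.49. MiR-148b-5p was at least 3.33-fold higher and miR-152-5p at least 6.38-fold. The call of miR-148b-5p, at an adjusted p of 0.00787, was lost without Dicer_KO replicate 1 (0.0579), and with DESeq2's size factors those of miR-148b-3p and miR-148b-5p were lost (0.679 and 0.077).

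**Figure D2:**
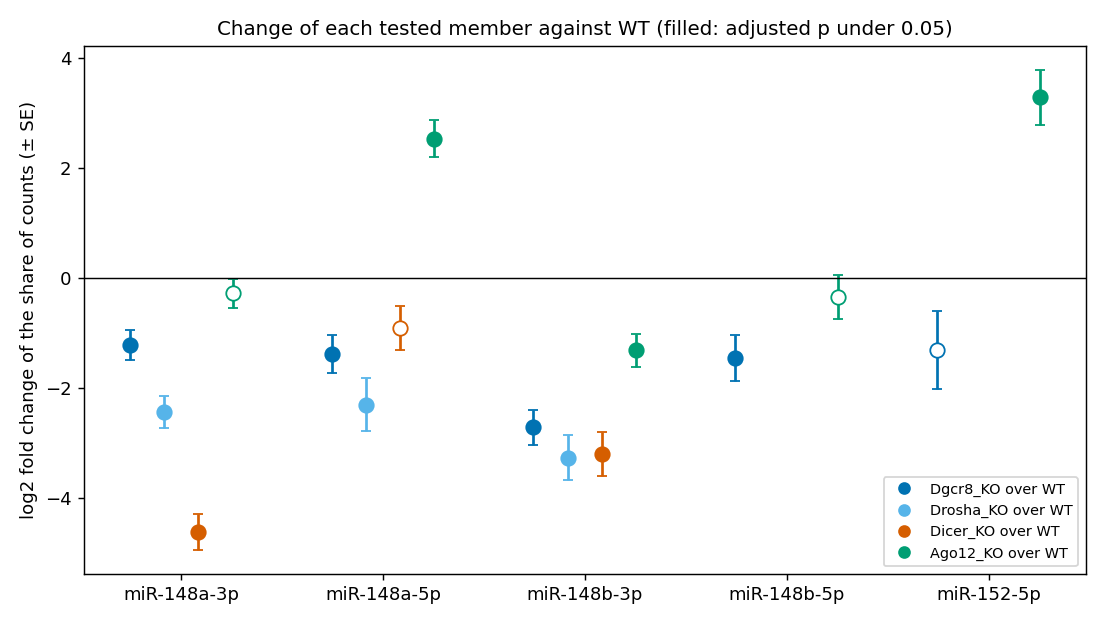
Log2 fold change over WT of the tested members in each mutant, with bars of ± 1 standard error derived from the test statistic. Filled points have an adjusted p under 0.05, and members with 3 or fewer counts in the mutant are not drawn. In Ago12_KO miR-148a-5p, at 2.54, and miR-152-5p, at 3.29, lie above 0.

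Markers of other cell types also differed between the groups. A list of 5 microRNAs typical of liver, gut and endoderm summed to 0.683 to 1.17% of counts in Ago12_KO, against 0.156 to 0.162% in WT. Of the 3 of them tested, 2 rose and 1 fell, where 28.7% of all tested entries rose and 25.8% fell in Ago12_KO. MiR-375-3p, 1 of the 2 that rose, averaged 23.1 CPM in WT, under the 38.54 CPM minimum for testing. It passed the filter through mutant libraries where it was high, with a mean of 192 CPM in Ago12_KO. Only the other tested entries of the list are therefore set beside those shares. The liver-defining miR-122-5p was at 0 in both groups. A list of 6 blood microRNAs summed to 0.866 to 1.13% in Ago12_KO, against 0.135 to 0.176% in WT, and the 3 tested rose. The defining miR-223-3p, miR-451a and miR-144-3p were at 0 in Ago12_KO. Their WT means were 0, 2.13 and 0.212 CPM, under the 3-count floor of 5.18 CPM over the Ago12_KO libraries. A level like that of WT could therefore not be told from absence. A list of 8 fibroblast or feeder microRNAs summed to 2.31 to 2.57% in Ago12_KO, against 4.14 to 4.33% in WT, with miR-214-3p at 0 in both. The sum mostly followed its 2 largest entries. MiR-22-3p averaged 23468 CPM in WT and 15583 in Ago12_KO, and miR-27b-3p 15856 and 6561. Of the 5 tested entries of the list, 1 rose and 1 fell. These were miR-10b-5p, with a log2 fold change of 3.42 (adjusted p = 9.44e-05), and miR-27b-3p, with -1.27 (adjusted p = 0.00173). In the other mutants the blood list summed to 0.473 to 0.478% (Dgcr8_KO), 0.350 to 0.564% (Drosha_KO) and 0.0427 to 0.0597% (Dicer_KO). Of its 3 tested entries, 2 rose and 1 fell in Dgcr8_KO, 2 rose in Drosha_KO and 2 fell in Dicer_KO. Of all tested entries 32.4% rose and 41% fell in Dgcr8_KO, 26.2 and 31.6% in Drosha_KO, and 13.3 and 42.6% in Dicer_KO. The fibroblast list summed to 1.21 to 1.27% (Dgcr8_KO), 1.18 to 1.56% (Drosha_KO) and 0.197 to 0.205% (Dicer_KO), and the liver, gut and endoderm list to 0.0190 to 0.0223%, 0.0174 to 0.0405% and 0.0240 to 0.0509%. Of the 5 tested fibroblast entries, 2 fell in Dgcr8_KO, 1 rose and 2 fell in Drosha_KO, and 1 rose and 3 fell in Dicer_KO. Of the 3 tested liver, gut and endoderm entries, 1 rose and 1 fell in Dgcr8_KO and in Drosha_KO, and 2 fell in Dicer_KO. The 1 that rose was miR-375-3p, at 76.2 CPM in Dgcr8_KO and 114 in Drosha_KO, which had passed the filter through mutant libraries. The part of these markers in the family's levels was not tested.

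The balance of the arms was described as the 5p share of a hairpin's counts and tested with limma on log2 of the 5p over the 3p count, with 0.5 added to each, over the 84 hairpins whose arms each averaged 20 counts or more. Mir-148a and mir-148b met that minimum and mir-152 did not. Being a ratio within a library, it does not depend on scaling for depth. Comparisons over WT share the WT libraries. The spread of a hairpin was pooled over the 5 groups, so its standard error is the same in every comparison.

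In mir-148a the 5p arm was a small minority in WT and in both microprocessor mutants, and a much larger part in Dicer_KO and Ago12_KO. Its share was 3.51 and 3.47% for Dgcr8_KO, 4.26 and 4.21% for Drosha_KO, 41.2 and 27.6% for Dicer_KO, 19.1 and 24.3% for Ago12_KO, and 3.76 and 4.03% for WT. The Dicer_KO and Ago12_KO libraries did not overlap those of the other groups. The Dicer_KO shares rested on 14 and 8 counts of the 5p arm, with 95% Clopper-Pearson intervals of 24.6 to 59.3% and 12.7 to 47.2%. The Drosha_KO shares rested on 4 and 4 counts of the 5p arm, with intervals of 1.17 to 10.5% and 1.16 to 10.4%.

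Over WT, the 5p to 3p ratio of mir-148a was 13.1-fold higher in Dicer_KO, a log2 difference of 3.71 ± 0.43 (SE, adjusted p = 0.000314), and 6.80-fold higher in Ago12_KO, a difference of 2.77 ± 0.43 (adjusted p = 0.002). Of the 84 hairpins, 26.2% shifted toward the 5p arm in Dicer_KO and 22.6% toward the 3p arm; in Ago12_KO the shares were 16.7% and 25%. Ranked by difference, mir-148a was number 9 in each. The median difference of all 84 was -0.0097 in Dicer_KO and -0.49 in Ago12_KO. In Dgcr8_KO the difference was -0.15 ± 0.43 (adjusted p = 0.947) and in Drosha_KO 0.29 ± 0.43 (adjusted p = 0.659). Shifts toward the 5p arm were called for 1.19% of hairpins in Dgcr8_KO and 7.14% in Drosha_KO, and toward the 3p arm for 5.95% in Drosha_KO.

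The mutants were also compared directly, in contrasts added after the values had been seen. Mir-148a was shifted toward the 5p arm in Dicer_KO over Dgcr8_KO, by 3.86 (adjusted p = 0.000326), and over Drosha_KO, by 3.42 (adjusted p = 0.000388), where 27.4 and 26.2% of all hairpins were called in that direction and 26.2% the other way in each. Between Dgcr8_KO and Drosha_KO its difference was -0.44 (adjusted p = 0.51), with 2.38% of hairpins called toward the 5p arm and 5.95% toward the 3p arm. The difference of Ago12_KO from Dicer_KO was -0.94 (adjusted p = 0.133), which became a call without Dicer_KO replicate 2, at -1.36 (0.0484), with adjusted p from 0.0484 to 0.369 over all alternatives; 8.33% of hairpins were called toward the 5p arm and 28.6% toward the 3p arm. In Dicer_KO the larger 5p share went with a lower 3p arm and in Ago12_KO with a higher 5p arm, on the scale of library totals.

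In mir-148b the 5p arm held 23.6 and 21.3% of counts for Dgcr8_KO, 33.3 and 12.5% for Drosha_KO (2 of 6 and 1 of 8 counts), 0 of 8 and 0 of 4 counts in Dicer_KO, 15.0 and 23.1% in Ago12_KO, and 10.1 and 11.5% in WT. Every library of Dgcr8_KO, Drosha_KO and Ago12_KO was above both WT libraries, in Drosha_KO by counts too few to tell (95% Clopper-Pearson intervals 4.33 to 77.7% and 0.316 to 52.7%), and none of these differences passed the test. They were 1.29 ± 0.60 in Dgcr8_KO (adjusted p = 0.402), 1.46 ± 0.60 in Drosha_KO (adjusted p = 0.121) and 0.94 ± 0.60 in Ago12_KO (adjusted p = 0.223). Without Drosha_KO replicate 2 the Drosha_KO difference was called, at 2.20 (0.0347), with adjusted p from 0.0347 to 0.411 over all alternatives. The 0 counts of Dicer_KO allow a 5p share of up to 36.9 and 60.2% by the Clopper-Pearson interval. In replicate 2 the 27.6% of mir-148a lay under that bound, so the depth did not allow such a share to be told from absence. In replicate 1 the 41.2% of mir-148a lay above the bound of 36.9%, which its own interval, 24.6 to 59.3%, held. Whether the 2 hairpins differed within Dicer_KO was not tested. The log2 differences of mir-148b in Dicer_KO were set by the 0.5 added to each count: -0.58 over WT (adjusted p = 0.461), -2.04 over Drosha_KO (adjusted p = 0.0214) and -1.87 over Dgcr8_KO (adjusted p = 0.0286). With 1 added, the first turned to 0.30 (0.656) and the others were no longer called (0.058 and 0.132). Whether mir-148a and mir-148b shifted differently within Ago12_KO was not tested.

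In mir-152 the 5p arm was the larger one in WT, at 62.6 and 55.3%, and took nearly all counts in Ago12_KO, at 96.6 and 97.5%. The Dgcr8_KO libraries had 3 of 6 and 4 of 5 counts on the 5p arm, Drosha_KO had 2 of 2 in 1 library, and Dicer_KO a single 3p count. With the minimum lowered to a mean of 5 counts per arm, over 150 hairpins, the log2 difference of Ago12_KO over WT was 4.22 ± 0.91 (SE, adjusted p = 0.00737). Mir-152-5p rose and its 3p arm, at 2 and 2 counts, had the ratio to WT given above.

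**Figure D3:**
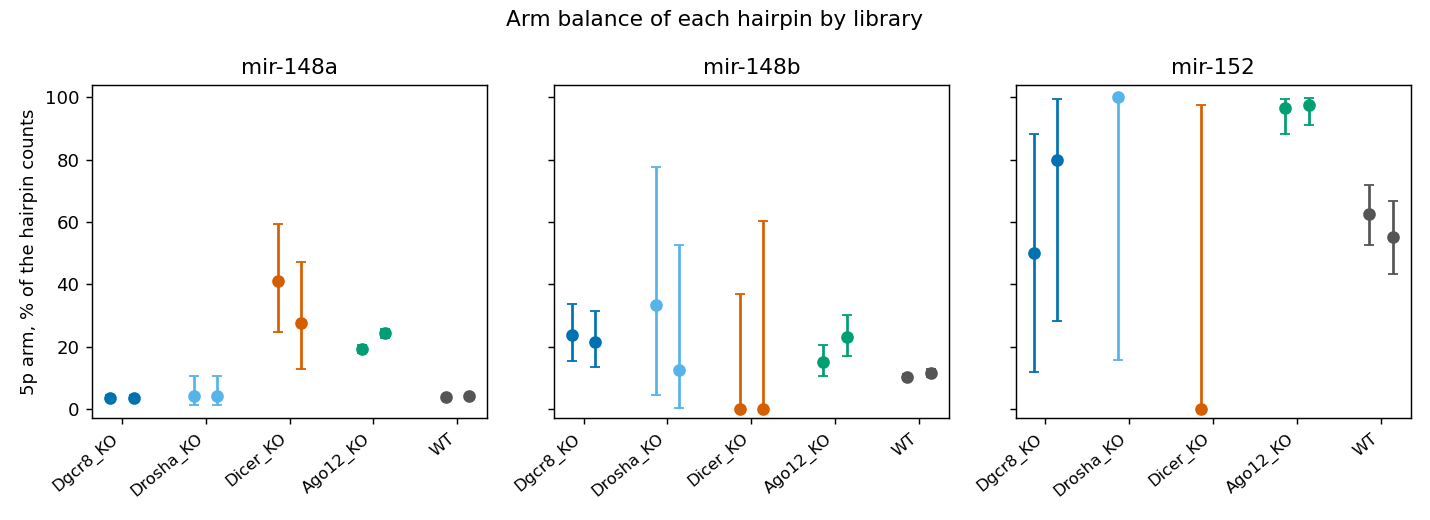
Share of each hairpin's counts on the 5p arm, in percent, for every library of Dgcr8_KO, Drosha_KO, Dicer_KO, Ago12_KO and WT, with 95% Clopper-Pearson intervals for counting error. For mir-148a the Dicer_KO libraries stand at 41.2 and 27.6% and the Ago12_KO libraries at 19.1 and 24.3%, above WT at 3.76 and 4.03%.

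The make-up of the family also differed between the groups. MiR-148a-3p supplied 90.8 and 92.7% of the family's counts for Dgcr8_KO, 88.2 and 88.3% for Drosha_KO, 46.5 and 63.6% for Dicer_KO, 75.5 and 70.7% for Ago12_KO, and 86.6 and 84.8% for WT. It was above WT in Dgcr8_KO and Drosha_KO and below WT in Dicer_KO and Ago12_KO, with no overlap of the library values. The Drosha_KO shares rested on 90 of 102 and 91 of 103 counts. Their Clopper-Pearson intervals, 80.4 to 93.8% and 80.5 to 93.8%, held both WT values. In Drosha_KO a difference from WT could therefore not be told from counting error. MiR-148a-5p supplied 32.6 and 24.2% for Dicer_KO and 17.9 and 22.7% for Ago12_KO, against 3.39 and 3.56% for WT. MiR-148b-3p supplied 4.24 and 2.92% for Dgcr8_KO, 3.92 and 6.80% for Drosha_KO, 18.6 and 12.1% for Dicer_KO, 4.38 and 3.49% for Ago12_KO, and 8.69 and 10.02% for WT.

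**Figure D4:**
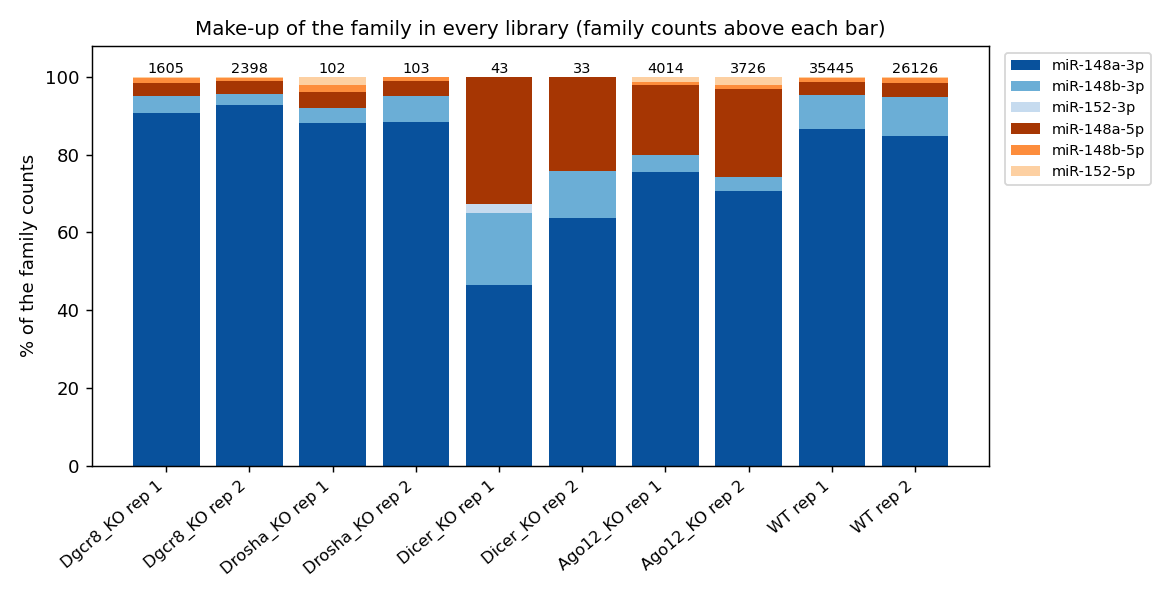
Part of the family's counts supplied by each member, in percent, 1 stacked bar per library of Dgcr8_KO, Drosha_KO, Dicer_KO, Ago12_KO and WT, with the family's counts above each bar. MiR-148a-3p fills 46.5 and 63.6% of the Dicer_KO bars, which rest on the fewest counts, and 86.6 and 84.8% of the WT bars.

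The entries whose levels followed miR-148a-3p most closely were looked for by the root mean square difference of log2 levels relative to WT over the 8 mutant libraries, among 476 other tested entries with a median of 2.91. The nearest were miR-22-3p at 0.53, miR-20b-5p at 0.60, miR-27a-3p at 0.69, miR-295-3p, a product of a cluster specific to embryonic stem cells, at 0.72, and miR-141-3p at 0.90. Within the family miR-148b-5p was near, at 0.61, but it had 0 counts in Dicer_KO, where the prior count of 2 sets its value. MiR-148b-3p, with the same seed, was at 1.26, with 31 entries nearer. MiR-148a-5p, from the same hairpin, was at 2.31, with 153 entries nearer, and miR-152-5p at 2.22, with 141 nearer.

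The guide strands of the miR-130 and miR-301 family, whose seed overlaps that of the miR-148 and miR-152 guides in a shifted register, were set beside it. All 4 were tested over WT: 1 fell with loss of Dgcr8, 4 with loss of Drosha, 4 with loss of Dicer and 3 with loss of Ago1 and Ago2. Of all tested entries 41, 31.6, 42.6 and 25.8% fell, in the same order. The median log2 fold changes of the 4 were -0.60, -1.92, -4.76 and -2.79. In Ago12_KO miR-301a-3p changed by -5.63 (adjusted p = 2.77e-06) and miR-130b-3p by -0.97 (adjusted p = 0.0593). Mirtrons, microRNAs from spliced introns that bypass Drosha and Dgcr8, were also counted over WT. The 6 tested all rose in Dgcr8_KO and in Drosha_KO, where 32.4 and 26.2% of all entries rose. MiR-702-5p averaged 8.37 CPM in WT, under the 38.54 CPM minimum for testing. It passed the filter through Dgcr8_KO and Drosha_KO, where it was high (142 and 213 CPM). Only the other tested mirtrons are therefore set beside those shares. In Dicer_KO 3 fell and in Ago12_KO 6, where 42.6 and 25.8% of all entries fell. The 6 in Ago12_KO include miR-702-5p, which had 0 counts there.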

How the data were processed

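Small RNA was sequenced from TruSeq small RNA libraries, per the labels' protocols. The authors deposited read counts per mature microRNA; Bowtie and the mm10 build are named per the submitters' processing notes, with settings not given in the sources used here. Of 1907 entries, 1262 had a count. The columns were matched to samples by name. Library sizes were column totals, since a few entries dominate some groups, and entries were tested by the quasi-likelihood test of edgeR 4.0.16 (5 groups in 1 fit, 5 residual degrees of freedom, filterByExpr with a minimum count of 10) in R 4.3.3. The standard error of an edgeR fold change was taken as its absolute log2 value divided by the square root of the F statistic. Arm ratios were tested with limma 3.58.1. Intervals are exact at 95% and floors are 3 counts; both cover counting error only, since reads without molecular identifiers are not independent molecules. Same-group replicates differed by more than sampling noise. Alternatives were TMM, DESeq2 1.42.0 (fit or size factors), no scaling, other filters, only the groups compared, a replicate block, other pseudocounts and arm minimums, and leaving out each library. The procedure was tested on data simulated from a common profile, for levels in Dgcr8_KO over WT and arm balance in Ago12_KO over WT. Comparisons of Drosha_KO and Dicer_KO were not covered. The members and lists were chosen with earlier results of these data known. Named entries were the members, the 5 entries nearest miR-148a-3p and at most 2 examples per list; marker entries at 0 counts are named as well, chosen after their values were seen.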

Additional observations from a re-analysis of the deposited data

How the results depend on the processing

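Counts of called members changed by more than 1.5 times in these cases. Over WT, the number called lower in Ago12_KO was 2 with TMM factors and with DESeq2, and with no scaling it was 3, with 0 called higher; in Dicer_KO it was 5 with no scaling. In Dicer_KO over Drosha_KO, 1 member (miR-148a-5p) was called higher with TMM factors, with DESeq2 size factors in edgeR and with DESeq2, and leaving out replicates gave 0 to 1. In Dicer_KO over Dgcr8_KO, 1 was called lower with DESeq2 size factors, with no filter, with only the groups compared and with DESeq2, 5 with no scaling, and 1 to 2 without single replicates; 1 was called higher with DESeq2 size factors and with DESeq2. In Ago12_KO over Dicer_KO, 3 were called higher with DESeq2 size factors and with DESeq2. In Dgcr8_KO over Drosha_KO, 4 were called higher with no scaling and 0 to 1 without single replicates. Signs turned for miR-148a-5p, to 0.48 in Dicer_KO over WT with DESeq2 size factors and 0.48 with DESeq2, to -0.45 in Ago12_KO over WT with no scaling, where the deeper WT libraries moved the median of all entries to -2.88, and to -2.58 in Dicer_KO over Dgcr8_KO with no scaling. They turned for miR-148b-3p, to 0.94 in Dicer_KO over Dgcr8_KO with DESeq2 size factors and 0.95 with DESeq2, and to -0.27 and -0.37 in Dicer_KO over Drosha_KO without Drosha_KO replicate 1 and without Dicer_KO replicate 1, with a highest value of 0.51 without Drosha_KO replicate 2. MiR-148b-5p turned to 0.083 in Ago12_KO over WT without Ago12_KO replicate 1 and was -0.85 without replicate 2. The arm difference of mir-148b turned to 0.30 in Dicer_KO over WT with a pseudocount of 1 and to 0.56 in Dgcr8_KO over Drosha_KO without Drosha_KO replicate 1, against -0.92 without Drosha_KO replicate 2, and in Drosha_KO over WT it was 0.73 to 2.20 without single replicates. The cause was not tested. When totals left out fragment-like entries, the family's share was 0.599% in Dgcr8_KO, 0.269% in Drosha_KO and 0.175% in Dicer_KO; with the 10 most abundant entries out it was 1.40%, 0.487%, 0.487%, 2.66% in Ago12_KO and 2.82% in WT. Replicate numbers did not pair the libraries: of 10 pairs of groups, with correlations of same-numbered deviations from -0.065 to 0.136, 1 was over 0.1. With the replicate number as a block, the call of miR-148b-5p in Drosha_KO was lost (adjusted p = 0.0509) and no other member call changed. Under all alternatives, 571 member values kept direction and call, 21 gained a call, 23 lost one and 9 turned. The depth of Drosha_KO and Dicer_KO limits every statement on mir-152, on both arms of mir-148b and on miR-148a-5p there.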
